A study of Mus musculus with 56 samples.

Results

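Hox cluster genes encode homeodomain transcription factors that lie in 4 clusters, A to D, on separate chromosomes of the mouse. The members described here are all probes whose gene symbol is Hox, a cluster letter and a paralog number, which gave 34 probes and 33 genes of 15063 genes on the array (10 genes of cluster A, 7 of B, 7 of C and 9 of D). Hoxb3 had 2 probes, which were averaged, and every other gene had 1.

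Genes at one end of a cluster (paralog numbers up to 4 here, called anterior) are used in the hindbrain and neck, and those at the other end (from 9, called posterior) in the lower trunk, the limbs and the urogenital tract, with central genes between them. Cells keep much of the Hox pattern of the body position they came from, also as cell lines, and Polycomb and Trithorax proteins hold silent and active clusters in their states. Hox proteins bind DNA together with TALE homeodomain partners of the Pbx and Meis families, and in the female reproductive tract posterior genes such as Hoxa9, Hoxa10, Hoxa11 and Hoxa13 mark its segments from oviduct to vagina.

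Two-color oligonucleotide arrays compared the OV line, derived from the surface epithelium of the mouse ovary, with the mouse fibroblast line 3T3. Each target was hybridized on 4 arrays of OV against 3T3: IVTIII cRNA from 3 rounds of T7 in vitro transcription, GA cDNA from global PCR after polyadenylation, SMART cDNA from template-switching PCR and SM37 cDNA from a modified SMART protocol, all from 10 ng of total RNA, SMART and GA from 10 pg, and unamplified cDNA from 100 μg. Arrays 1 and 3 carried OV in Cy5 and 3T3 in Cy3 and arrays 2 and 4 the reverse, and by the study's methods the 4 arrays of a target hold 2 independent replicates of each line. A further 21 arrays set OV replicas, prepared separately from the same RNA, against each other, 3 set an OV target against itself and 4 set GA or SMART replicas of pooled neural stem cells from embryonic mouse neocortex against each other. Amounts and the number of pooled cells differ between the sources, and amounts follow the titles and the methods. By the methods, only part of the product from 10 ng was carried on between amplification steps, to reach single-cell amounts. The amounts 10 ng and 10 pg thus name the total RNA put into reverse transcription. Both lines are cultured, their passage and clonal origin are not given in the sources used here, and all targets start from RNA of the same lines, so p-values, which take the arrays as independent, measure the spread between arrays and preparations, not between cultures.

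Values are log2 ratios of OV over 3T3, so 1 stands for a 2-fold higher signal in OV. The deposited ratios were taken to be Cy5 over Cy3 and given their sign by the dye labels. The sources give both directions, and this one is called likely from the genes that follow. Xist, which is transcribed from an inactive X chromosome, was at 3.21 ± 1.30 in unamplified cDNA and Cdkn2a, a cell cycle inhibitor gene that 3T3 cells lack, at 1.58 ± 0.11 (SD, n = 4 arrays each), and both had positive means in every other target where they had a value except GA at 10 pg. Labels contradict themselves on IVTIII array 1, where the dye in the description was followed, and on GA array 2 at 10 ng, where the title and the channels were followed. The arrays labelled GA 10 pg stood apart. Xist was at 0.46, -0.21, -0.35 and -0.29 on them, and over all genes they correlated with the mean of unamplified cDNA at r = -0.15 to 0.00, against 0.38 to 0.69 for single arrays of the other amplified targets.

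In unamplified cDNA, 8 of 13 tested markers of mesothelium and the surface epithelium of the ovary were called higher in OV, with Upk1b at 4.26, Wt1 at 3.65 and Krt8 at 3.44, and 1 was called lower, Krt18 at -0.75, while Cdh1 was at 0.14. Of 9 tested fibroblast markers 4 were lower in OV, with Prrx1 at -3.33, and 2 were higher, the collagen genes Col3a1 at 2.15 and Col1a1 at 1.47. The OV line thus had mesothelial markers beside fibrillar collagens, and their part in the Hox ratios was not tested. In place of depth, unamplified arrays measured 11006 to 13330 genes each. Counts on amplified arrays were 4810 to 6312 (IVTIII), 7511 to 12101 (GA), 8766 to 13384 (SMART) and 7575 to 9435 (SM37), and from 10 pg 1989 to 4311 (SMART) and 4594 to 13594 (GA). Signal over background is not known.

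Promoters, taken as 250 bases before to 50 after a RefSeq transcript start in GRCm38.p6, were found for 20 of the 33 genes and gave 22 windows. The 4 printed here belong to Hoxd10 and Hoxa10, with the largest positive ratios, and to Hoxd4 and Hoxd8, which lie on either side of Hoxd3 in the D cluster and had opposite ratios. Capitals mark the CCAAT box (letters CCAAT) and the TATA box (letters TATAAA), searched on both strands. Hoxd10 lies on the plus strand at chr2:74691641-74691940, Hoxd4 at chr2:74721728-74722027 and Hoxd8 at chr2:74704365-74704664 on the same strand, and the shown start of Hoxa10, 1 of 2 in the table, on the minus strand at chr6:52234890-52235189.
Hoxd10: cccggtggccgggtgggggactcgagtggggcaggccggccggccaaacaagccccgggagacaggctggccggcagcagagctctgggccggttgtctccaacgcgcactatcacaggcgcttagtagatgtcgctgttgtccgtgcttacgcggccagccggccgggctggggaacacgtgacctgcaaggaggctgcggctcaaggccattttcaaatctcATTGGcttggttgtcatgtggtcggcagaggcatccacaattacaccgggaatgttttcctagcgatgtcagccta
Hoxa10: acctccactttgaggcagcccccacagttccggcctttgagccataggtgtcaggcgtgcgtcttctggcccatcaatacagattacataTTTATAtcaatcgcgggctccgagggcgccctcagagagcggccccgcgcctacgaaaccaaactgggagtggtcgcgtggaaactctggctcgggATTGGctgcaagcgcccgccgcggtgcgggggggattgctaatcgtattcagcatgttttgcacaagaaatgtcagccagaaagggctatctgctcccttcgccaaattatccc
Hoxd4: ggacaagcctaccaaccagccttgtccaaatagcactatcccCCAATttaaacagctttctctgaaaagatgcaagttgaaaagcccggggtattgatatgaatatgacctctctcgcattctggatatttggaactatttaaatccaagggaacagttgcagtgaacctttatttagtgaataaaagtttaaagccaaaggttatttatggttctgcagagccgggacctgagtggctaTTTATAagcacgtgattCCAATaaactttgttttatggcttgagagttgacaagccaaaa
Hoxd8: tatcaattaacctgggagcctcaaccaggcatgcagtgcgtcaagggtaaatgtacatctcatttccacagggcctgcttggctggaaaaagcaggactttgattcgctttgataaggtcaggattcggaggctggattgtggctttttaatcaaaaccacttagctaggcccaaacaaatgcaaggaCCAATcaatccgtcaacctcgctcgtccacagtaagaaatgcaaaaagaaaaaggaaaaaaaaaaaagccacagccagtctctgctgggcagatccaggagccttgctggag

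Of the 22 Hox windows, 13 (59.1%) held a CCAAT box, against 37.4% of 32851 windows of all genes, and 3 (13.6%) a TATA box, against 13.6% of all. The composite Hox-Pbx motif TGATTNAT was found in 1 window each of Hoxa2 and Hoxd11 (9.09%, against 3.22% of all). Median GC content was 57.7% in Hox windows and 52.7% in all windows. Hoxd10, higher in OV, and Hoxd8, lower in OV, each held 1 CCAAT box and no TATA box. The printed window of Hoxa10 held 1 of each box, and its other window, not printed, held neither. Hoxb6 and Hoxb9, which were called in opposite directions, have no window shown.

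In unamplified cDNA, 25 of the 33 Hox genes had a value on all 4 arrays and were tested, and 7 were called, with 4 higher and 3 lower in OV. A gene is called at an LOD above 0 in limma, the log odds that it differs. Of the tested genes 3 of 10 posterior, 2 of 8 central and 2 of 7 anterior ones were called. The ratios largest in size were those of 3 posterior genes: Hoxd10 was 5.44-fold and Hoxa10 2.66-fold higher in OV, and Hoxb9 was 4.28-fold lower. The other 4 were anterior or central, Hoxb6 and Hoxd4 higher and Hoxa3 and Hoxd8 lower, at 1.41-fold to 1.63-fold. Over all genes 8.81% of those tested were called higher and 7.30% lower, 16.1% in either direction. In RNA of whole cultures, fewer cells that express a gene and less RNA per cell cannot be told apart. The median ratio of the 25 Hox genes was 0.28, against 0.00 over 10185 genes, and the median size regardless of sign was 0.46, against 0.23.

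**Figure D1:**
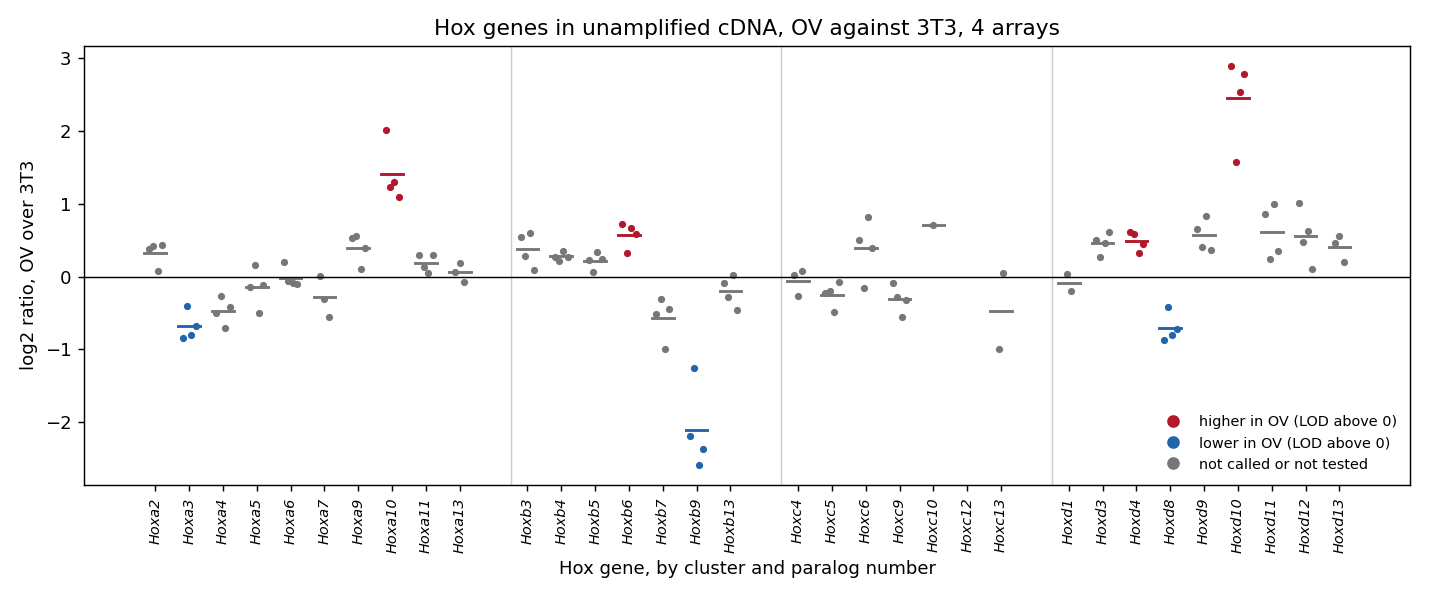
Log2 ratio of OV over 3T3 (y axis) for each Hox gene in order of cluster and paralog number (x axis) in unamplified cDNA. Points are single arrays, bars their means, red genes were called higher and blue genes lower in OV. Hoxd10 lies between 1.57 and 2.89 and Hoxb9 between -2.58 and -1.26, while most of the others stay within 1 of zero.

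Hoxd10, which patterns the hindlimb and lumbar spinal motor neurons, had the largest ratio. Its values were 2.89, 1.57, 2.53 and 2.78, with a mean of 2.44 ± 0.60 (SD, n = 4) and a limma adjusted p of 0.000506. All 4 arrays were far above zero, and the lowest came from array 2. Ratios on array 2 were smaller in general, with an SD over Hox genes of 0.54, against 0.81 to 0.89 on the others. Over all genes its SD was 0.43, against 0.55 to 0.56. On 16 arrays of OV against OV, those at 10 pg left aside, no Hoxd10 value was larger in size than -0.22, and with those at 10 pg the largest of 20 was 0.79.

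Hoxa10, needed for uterine development and implantation, was at 2.02, 1.23, 1.30 and 1.09 and averaged 1.41 ± 0.42 (adjusted p = 0.000933 in limma). Its lowest OV against 3T3 value thus lay above the largest size, -0.57, seen for it in 14 arrays of OV against OV, or in the 12 of them above 10 pg. The neighbouring genes of its cluster were much closer to zero. Hoxa9, which is active in the oviduct, was at 0.52, 0.55, 0.10 and 0.39, and Hoxa11, required in uterus and kidney, at 0.29, 0.13, 0.05 and 0.30. Neither was called, and both were positive on every array.

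Hoxb9, a gene of the thoracic skeleton and the mammary gland, had the lowest mean ratio. It was at -2.19, -1.26, -2.58 and -2.37, with a mean of -2.10 ± 0.58 (adjusted p = 0.000701 in limma). On 8 arrays of OV against OV, those at 10 pg left aside, its largest value in size was -0.61. With those at 10 pg it was 2.27 over 11 arrays, larger than the smallest OV against 3T3 value. Along the B cluster the sign changed between neighbours. Hoxb7, its nearest neighbour with a probe, was at -0.512, -0.312, -0.997 and -0.443, below zero on all 4 arrays but not called (LOD -2.002). Hoxb6, a gene of trunk mesoderm, was at 0.72, 0.33, 0.67 and 0.59, averaged 0.58 ± 0.17 and was called higher (adjusted p = 0.00222 in limma).

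In the D cluster, 7 of 9 genes were tested and their median ratio was 0.56. Hoxd3, Hoxd4, Hoxd9, Hoxd10, Hoxd11 and Hoxd12 were positive on all 4 arrays and Hoxd13, a gene of digits and genital tubercle, on the 3 arrays that measured it (0.46, 0.56 and 0.21). Hoxd8 lies between Hoxd9 and Hoxd3 on the chromosome and went the other way, at -0.87, -0.41, -0.80 and -0.72, a mean of -0.70 ± 0.20 (adjusted p = 0.00153 in limma). Its values did not overlap those of either neighbour. Hoxd9 was at 0.66, 0.41, 0.83 and 0.36, and Hoxd3 at 0.50, 0.27, 0.46 and 0.61, but neither was called. Hoxd4, a retinoic acid responsive gene of hindbrain and neck, was at 0.61, 0.59, 0.32 and 0.45 and averaged 0.49 ± 0.13 (adjusted p = 0.00253 in limma), with an LOD of 0.09 at the edge of the threshold. The call was lost with arrays scaled to the same spread, with a dye term, and without array 1, 2 or 4, at an adjusted p of 0.00324 to 0.0191. Just below it lay Hoxd3 at an LOD of -0.46 and Hoxd9 at -0.74. The limb genes Hoxd11 and Hoxd12 averaged 0.61 ± 0.37 and 0.56 ± 0.38, each with values spread over more than 0.7.

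At the anterior end of cluster A, Hoxa3, needed for thymus and parathyroid, was called lower at -0.85, -0.40, -0.81 and -0.68 (mean -0.68 ± 0.20, adjusted p = 0.00163 in limma). Its neighbour Hoxa4 was negative on all 4 arrays too, at a mean of -0.47 ± 0.18 that was not called, whereas Hoxa2, a gene of the pharyngeal arches, averaged 0.32 ± 0.17. The remaining tested genes of the A and B clusters (Hoxa5, Hoxa6, Hoxb3, Hoxb4, Hoxb5 and Hoxb13) had means of -0.20 to 0.37 and none was called.

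Cluster C had the fewest measured members, with 3 of 7 genes tested and 0 called in unamplified cDNA (2 of them at an adjusted p under 0.05 in limma). Hoxc6, which patterns the brachial region, was at 0.50, -0.16, 0.82 and 0.39, Hoxc5 averaged -0.25 ± 0.17 and Hoxc9, a thoracic gene, -0.31 ± 0.19. Hoxc4 had 3 values around zero and Hoxc13 values of -0.99 and 0.04. Hoxc10 was measured once, at 0.70, and Hoxc12 on none of the 4 arrays. Elsewhere Hoxa7 and Hoxa13 lacked 1 array and Hoxd1 lacked 2, and the means of these genes were between -0.28 and 0.06.

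These counts depended on the threshold. At an adjusted p under 0.05 in place of the LOD, 20 of the 25 genes passed, 13 higher and 7 lower, where 48.8% of all genes did. Leaving out array 1 or array 4 kept only Hoxa10, Hoxb9 and Hoxd10 among the calls (3 genes), and leaving out array 3 these and Hoxd4 (4 genes). Without array 2 only Hoxd4 was lost (6 genes).

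Genes that work with Hox proteins were read from lists, beside the 8.81% of all genes called higher and 7.30% called lower. At an adjusted p under 0.05 in limma, 2445 of the 10185 genes were higher and 2528 lower. Of 6 TALE cofactors, Meis2 was higher at 0.97 ± 0.30 and Meis3 at 0.65 ± 0.13, Pknox1 lower at -0.52 ± 0.11, and Meis1, at -1.82 ± 0.80, was not called. Among 15 tested Polycomb genes 2 were lower, the histone methyltransferase Ezh2 at -0.60 ± 0.18 and Cbx2 at -0.53 ± 0.07, and 0 were higher (6 lower and 0 higher at an adjusted p under 0.05 in limma). Of 8 Trithorax genes 2 were higher and 0 lower, with the histone demethylase Kdm6a at 0.85 ± 0.32 and Ash2l at 0.43 ± 0.08. Trithorax genes were 3 higher and 2 lower, and TALE cofactors 3 and 3, at an adjusted p under 0.05 in limma. The median ratios of these lists, 0.13 for TALE, -0.07 for Polycomb and 0.11 for Trithorax genes, stood beside 0.00 for all genes.

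Retinoic acid sets Hox expression in the embryo, and of 13 tested genes of its uptake, synthesis, binding, breakdown and receptors 4 were higher in OV and 0 lower (6 higher and 1 lower at an adjusted p under 0.05 in limma), where 8.81% of all genes were higher and 7.30% lower. The synthesis enzyme Aldh1a1 was at 3.17 ± 0.59, Dhrs3, a reductase that turns retinal back to retinol, at 2.36 ± 0.46 and the receptor Rara at 0.67 ± 0.14. Other homeobox genes were called in both directions, 5 higher and 4 lower of 38, led by Prrx1, Cux1 at 0.97 and Satb1 at -0.96. Of these 38, 9 were higher and 14 lower at an adjusted p under 0.05 in limma. ParaHox, Evx and related genes gave 0 calls among 5 tested (1 at an adjusted p under 0.05 in limma). Of 17 tested genes that flank the clusters, 2 were higher and 2 lower (3 higher and 5 lower at an adjusted p under 0.05 in limma). Snx10, near cluster A, was at 1.30 ± 0.22 and Nfe2l1, near cluster B, at 0.80 ± 0.26, while Hnrnpa1, near cluster C, was at -0.59 ± 0.06 and Lnpk, near cluster D, at -0.58 ± 0.19. Lnpk thus had the opposite sign to most Hoxd genes. Antisense transcripts Hoxa11os and Hoxaas3 had 3 values each, between -0.08 and 0.15.

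Amplified targets measured fewer Hox genes on all 4 arrays: 10 in IVTIII, 18 in GA, 20 in SMART, 19 in SM37, 14 in GA at 10 pg and 0 in SMART at 10 pg, against 25 in unamplified cDNA. These were 30.3% of the 33 genes in IVTIII, 54.55% in GA, 60.6% in SMART, 57.6% in SM37 and 42.4% in GA at 10 pg, against 75.8% in unamplified cDNA. Over all genes the shares were 26.4% in IVTIII, 36.2% in GA, 49.2% in SMART, 38.4% in SM37, 29.4% in GA at 10 pg and 7.69% in SMART at 10 pg, against 67.6% in unamplified cDNA, so the share fell over all genes as well. On any array at least, SMART at 10 pg still gave values for 13 of the 33 genes. Of the 7 genes called in unamplified cDNA, 1 each was called in the same direction in IVTIII, GA, SMART and SM37 and 0 in both targets from 10 pg. Several of the 7 lacked values and could not be called. Not tested were Hoxa3, Hoxb6 and Hoxb9 in IVTIII and Hoxb6, Hoxd8 and Hoxd10 in GA. In SMART these were Hoxa10, Hoxb6 and Hoxd8, and in SM37 Hoxb6 and Hoxd8. From 10 pg only Hoxd4 in GA was tested. The share of all genes called again was not counted. Means of the 7 lay nearer zero than in unamplified cDNA for 4 of 4 measured genes in IVTIII, 7 of 7 in GA, 7 of 7 in SMART and 6 of 7 in SM37. From 10 pg they did for 3 of 3 in SMART and 6 of 7 in GA. The sign was the same for 4 genes in IVTIII, 6 in GA, 5 in SMART and 6 in SM37, and for 2 in each target from 10 pg. Some means rest on 1 array, as for Hoxd8 in GA and SM37 and Hoxb6 in SMART. Shares over all genes were not counted. The 7 genes were picked by their ratio in unamplified cDNA, so the counts are a description.

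**Figure D2:**
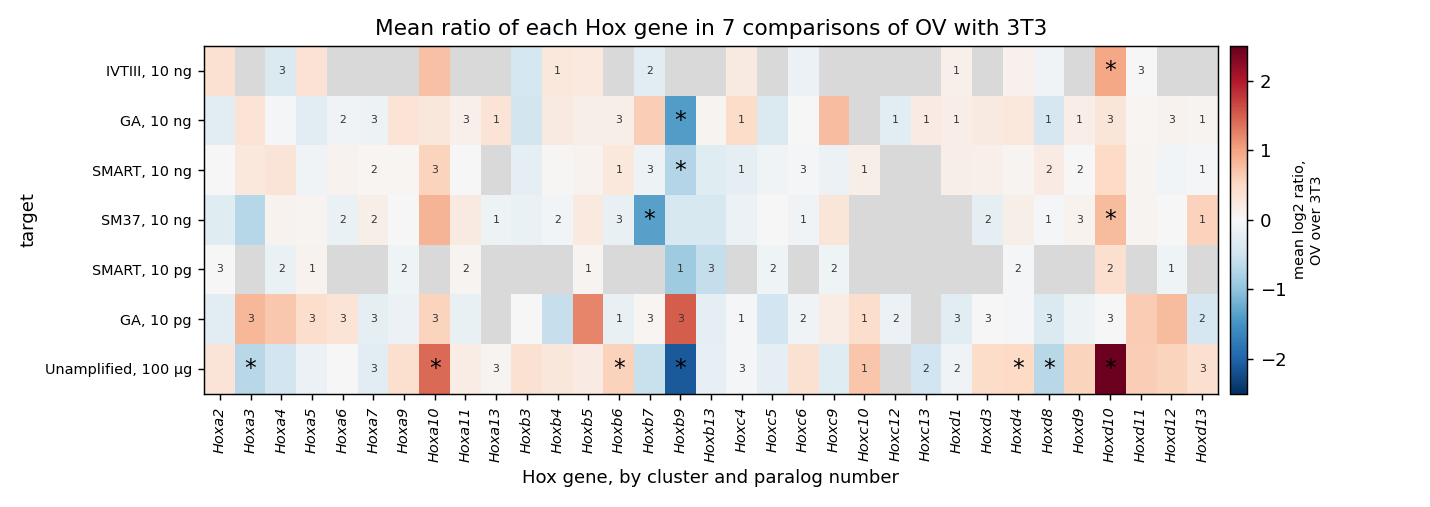
Mean log2 ratio of OV over 3T3 (color) for each Hox gene (columns, by cluster and paralog number) in each target (rows). Asterisks mark called genes, digits the number of arrays where fewer than 4 had a value, and grey cells have none. Hoxd10 and Hoxb9 carry the strongest colors in unamplified cDNA, and Hoxb9 has the opposite color in GA at 10 pg. Whether the arrays of GA at 10 pg follow their labels is not known.

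In IVTIII cRNA, Hoxd10 was the 1 call among 10 tested Hox genes, where 11.6% of all genes were called higher and 10.4% lower (22.0% in all). It was at 0.85, 0.99, 0.86 and 1.19, a mean of 0.97 ± 0.16 (adjusted p = 0.000164 in limma), against 2.44 in unamplified cDNA. The values of both targets did not overlap. Hoxa10 was at 0.96, 1.00, 0.37 and 0.58 and stayed just under the threshold (LOD -0.35), and without array 3 it passed as well, so that 2 genes were called. Hoxb9 had no value on any IVTIII array.

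In GA cDNA, Hoxb9 was the 1 call among 18, where 6.14% of all genes were called lower and 2.09% higher (8.23% in all). Its values, -1.43, -1.44, -1.37 and -1.33, were the tightest of any called Hox gene (mean -1.39 ± 0.05, adjusted p = 0.00108 in limma). Their difference from unamplified cDNA did not pass the threshold ( 0.71 ± 0.25, SE, adjusted p = 0.0659 in limma). GA arrays 1 and 2 parted from arrays 3 and 4 for some other members. Hoxc9 was at -0.32, -0.24, 1.18 and 2.49, and Hoxb7 at 0.00, -0.30, 1.06 and 1.68, so both had mixed signs. Over Hox genes arrays 1 and 2 correlated at r = 0.90 (22 genes) and arrays 3 and 4 at 0.86 (20 genes), against 0.22 to 0.50 for the other GA pairs. These are dye-swap pairs if neighbouring numbers share their preparations, which the labels do not say. Hoxd10 was at 0.44, 0.12 and 0.36 on the 3 GA arrays with a value and could not be tested.

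In SMART cDNA, Hoxb9 was again the 1 call, among 20 tested genes, where 1.01% of all genes were called lower and 2.53% higher (3.54% in all). It was at -0.27, -1.08, -0.60 and -0.98, a mean of -0.73 ± 0.37 (adjusted p = 0.0159 in limma). The call was lost without array 2, 3 or 4, when its adjusted p was 0.0232 to 0.134, and 0 Hox genes were called without array 2 or 3. Without array 1 Hoxb9 and Hoxd10 were called (2 genes), and without array 4 Hoxa10, Hoxb3 and Hoxd10 (3 genes). Hoxd10 was at 0.29, 0.66, 0.69 and 0.37 and had an LOD of -0.21. SMART arrays 1 and 4 correlated at r = -0.07 over all genes, and the other pairs of SMART arrays at up to 0.71. Hoxa3 and Hoxa4 ranged from -0.52 to 1.26 and from -0.54 to 1.14 over these arrays.

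SM37 cDNA gave 2 calls among 19 genes, where 3.91% of all genes were called higher and 9.10% lower. Hoxd10 was at 1.02, 1.06, 0.44 and 0.66, a mean of 0.79 ± 0.30 (adjusted p = 0.0022 in limma), and lost its call without array 1, 2 or 4 while its adjusted p stayed between 0.00823 and 0.0112. Without array 4 Hoxa10 was called beside Hoxb7. Hoxb7 was at -1.34, -1.55, -1.26 and -1.28, which is 2.56-fold lower in OV (mean -1.36 ± 0.13, adjusted p = 0.000152 in limma). All 4 SM37 values of Hoxb7 were below all 4 values of unamplified cDNA, whose lowest was -0.997. Hoxb9 was at -0.60, -0.60, -0.23 and -0.17 and was not called.

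**Figure D3:**
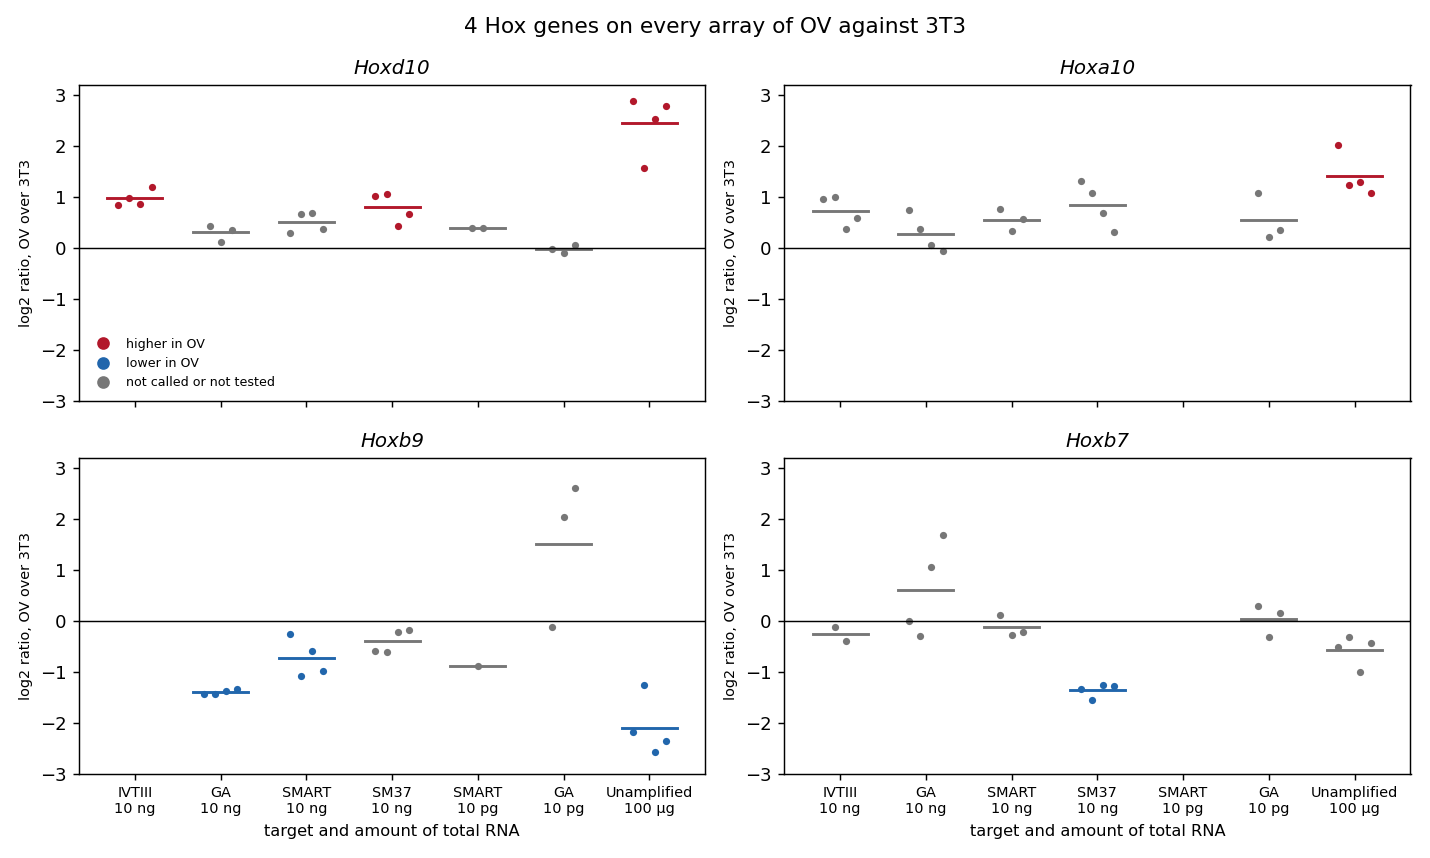
Log2 ratio of OV over 3T3 (y axis) of Hoxd10, Hoxa10, Hoxb9 and Hoxb7 on every array with a value, by target (x axis). Points are arrays and bars means, colored red where called higher and blue where called lower in OV. The mean of Hoxd10 is 0.97 or less in the amplified targets and 2.44 in unamplified cDNA, Hoxb9 has no value in IVTIII and overlaps with unamplified cDNA in GA, and Hoxb7 lies further from zero in SM37 than in unamplified cDNA.

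The targets from 10 pg called 0 Hox genes. In SMART at 10 pg no member had a value on all 4 arrays, although 8.97% of 1159 tested genes were called in this target, 6.04% higher and 2.93% lower. Hoxd10 was at 0.40 and 0.39 on arrays 1 and 2, and Hoxb13, a gene of prostate and tail, at -0.48, -0.88 and -0.44 on arrays 2 to 4. Hoxb9 had the single value -0.89. In GA at 10 pg 14 genes were tested, where 5.45% of all genes were called, 2.73% higher and 2.71% lower. Hoxb5 was at 0.57, 1.12, 1.54 and 1.63 and Hoxd12 at 0.70, 0.79, 0.94 and 0.71, positive throughout with adjusted p of 0.0226 and 0.0256 in limma but LOD below 0. Hoxb5 was called once array 1 was left out. Hoxb9 was at -0.11, 2.03 and 2.60 on arrays 2 to 4, opposite in sign on 2 arrays to its ratio in unamplified cDNA. Hoxd10 was at -0.01, -0.09 and 0.05. On the GA arrays from 10 pg Xist averaged -0.10 and Cdkn2a -0.25, so whether their ratios follow the labels is not known. No sign on them is read as a reversal.

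At an adjusted p under 0.05 in limma in place of the LOD, 5 of 10 Hox genes passed in IVTIII (55.9% of all genes), 2 of 18 in GA (27.9%), 2 of 20 in SMART (7.06%), 8 of 19 in SM37 (43.0%) and 2 of 14 in GA at 10 pg (17.1%). In SMART at 10 pg 33.3% of all genes passed, none of them a Hox gene since none was tested. With at most 20 members in a target, no share of Hox genes is read as above or below that of all genes.

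Ratios of each amplified target were then tested against those of unamplified cDNA, with the same 4 unamplified arrays in each of these fits. In IVTIII, 7 of 9 tested Hox genes differed at an adjusted p under 0.05 (48.1% of all genes), 4 of 18 in GA (21.4%), 4 of 19 in SMART (18.0%), 10 of 18 in SM37 (37.9%) and 6 of 14 in GA at 10 pg (35.9%). In SMART at 10 pg, where 34.8% of all genes differed, no Hox gene could be tested. Whether the arrays of GA at 10 pg follow their labels is not known, since Xist and Cdkn2a had no positive mean on them. Hoxd10 differed in every target from 10 ng where it was tested: by -1.47 ± 0.25 in IVTIII, -1.94 ± 0.25 in SMART and -1.65 ± 0.26 in SM37 (SE, adjusted p of 0.000841, 0.000429 and 0.000855 in limma). Hoxb9 differed by 1.37 ± 0.26 in SMART and 1.70 ± 0.25 in SM37. Hoxa10 differed by -0.68 ± 0.21 in IVTIII and -1.13 ± 0.23 in GA, but not at the threshold in SM37 (-0.56 ± 0.24, adjusted p = 0.0861 in limma). The counts leaned on single arrays. Without unamplified array 1 they were 4 in IVTIII, 2 in SMART, 6 in SM37 and 1 in GA at 10 pg. Without unamplified array 2, 3 or 4 GA at 10 pg gave 2, 3 and 2, and SMART gave 2 without unamplified array 3. Among amplified arrays, IVTIII gave 4 without its array 4, and SMART gave 2 without its array 3 and 8 without its array 4.

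Some members had opposite signs in amplified and unamplified targets on every array, with the difference past the threshold in limma. The share of all genes with such signs was not counted, so this is not read as a trait of Hox genes. In GA, Hoxa3 was at 0.22, 0.02, 0.39 and 0.74, against -0.85 to -0.40 in unamplified cDNA (difference 1.03 ± 0.17, adjusted p = 0.00357). Hoxa2 was at -0.34, -0.36, -0.20 and -0.14 in GA and at -0.43, -0.22, -0.48 and -0.05 in SM37, against 0.07 to 0.43 in unamplified cDNA (adjusted p of 0.0113 and 0.00426). Hoxc9 was at 0.25, 0.41, 0.22 and 0.32 in SM37, against -0.55 to -0.09 (adjusted p = 0.00269). Hoxb3, a gene of hindbrain and neck, was at -0.80, -0.77, -0.18 and -0.06 in GA, against 0.09 to 0.59 (adjusted p = 0.0174). The 2 probes of Hoxb3 went apart in GA, with means of 0.33 and -1.24, whereas in unamplified cDNA they averaged 0.31 and 0.44. The sign of the Hoxb3 difference thus came from 1 probe. In SM37, Hoxb7 was the 1 called gene that lay further from zero than in unamplified cDNA (difference -0.79 ± 0.15, adjusted p = 0.00241).

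Arrays of OV against OV give the Hox ratio measured where no difference between lines can enter. In unamplified cDNA the SD over Hox genes was 0.54 to 0.89 on the arrays of OV against 3T3, against 0.11 on the self-self array, whose largest Hox ratio was 0.31 (Hoxa9). The largest on the unamplified replica array was -0.73 for Hoxc12, which had no unamplified value of OV against 3T3. Arrays of OV against 3T3 from 10 ng had SDs of 0.35 to 0.57 in IVTIII, 0.44 to 0.56 in SM37, 0.30 to 0.41 in SMART and 0.40 to 0.83 in GA. Between separate OV replicas the SD was 0.18 in unamplified cDNA, 0.18 and 0.20 in IVTIII, 0.25 and 0.24 in SM37, 0.24 and 0.25 in SMART and 0.30 and 0.39 in GA from 10 ng. The arrays did not measure the same Hox genes, in SM37 for example 10 and 14 on replica arrays and 21 to 27 on arrays of OV against 3T3. In each of these targets all arrays of OV against 3T3 lay above the replicas, but only narrowly in GA (0.395, against 0.389). At 10 pg they did not. SMART arrays of OV against 3T3 with more than 2 Hox values had SDs of 0.22 and 0.33, against 0.38 and 0.35 between replicas. GA had 0.49 to 0.90 on arrays of OV against 3T3, against 0.87 and 0.62 between replicas. Over all genes the order was the same. SDs of OV against 3T3 were 0.43 to 0.56 in unamplified cDNA (replicas 0.12) and 0.58 to 0.71 in IVTIII (0.32 and 0.31). They were 0.42 to 0.53 in SM37 (0.37 and 0.37) and 0.24 to 0.39 in SMART (0.23 and 0.18). In GA they were 0.45 to 0.69 (0.37 and 0.44). At 10 pg they were 0.28 to 0.33 in SMART (0.38 and 0.35) and 0.51 to 1.14 in GA (0.77 and 0.52).

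**Figure D4:**
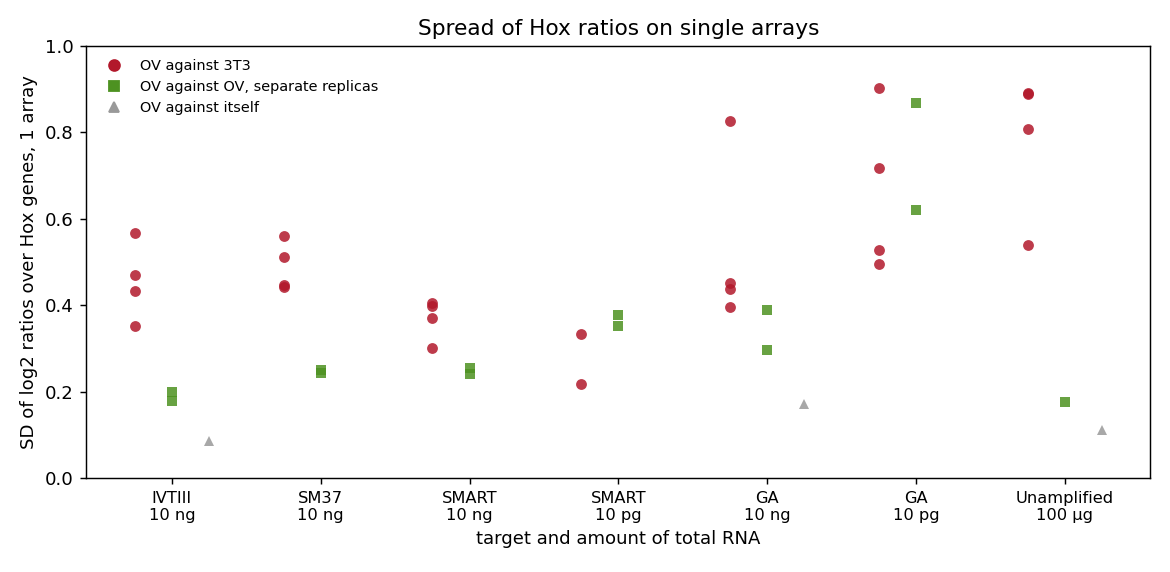
SD of log2 ratios over the Hox genes measured on a single array (y axis), by target (x axis), for OV against 3T3 (red circles), separate OV replicas (green squares) and OV against itself (grey triangles); arrays with fewer than 5 Hox values are left out. From 10 ng the red circles lie above the green squares of the same target, and at 10 pg they lie below them in SMART (0.22 and 0.33, against 0.38 and 0.35) and overlap with them in GA.

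The called genes of smaller ratio reached like sizes between OV replicas amplified by GA. With 10 pg left aside, the largest OV against OV value was 1.31 for Hoxa3, 0.34 for Hoxb6 and -0.62 for Hoxd8, all in GA from 100 pg. For Hoxd4 it was -0.60, in GA from 10 ng. Each was larger in size than the smallest unamplified OV against 3T3 value of the gene. A maximum over 9 to 16 arrays is here set beside a minimum over 4. Between OV targets of unamplified cDNA no value of these genes was beyond -0.09.

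Single members differed strongly between GA replicas of OV. From 10 pg, Hoxd8 was at -2.60 and -2.17 on the 2 dye-swapped arrays, replica 1 over replica 2, further from zero than any OV against 3T3 value of the gene. Hoxb9 was at 2.27 and 1.11, Hoxd4 at -1.61 and -0.86 and Hoxd3 at 1.38 and 0.74. In each case both dye orientations gave the same sign. From 10 ng Hoxc9 reached -1.65 on 1 array and -0.27 on the other. In SMART replicas from 10 pg, Hoxd10 was at 0.79 and 0.66, larger than in SMART at 10 pg of OV against 3T3.

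Replicas of the neural stem cell pools came from neocortex, which develops in front of the region where Hox genes act. They gave ratios for 20 and 27 Hox genes in GA and 25 and 18 in SMART, from -0.601 to 1.595 in GA and from -0.48 to 0.34 in SMART. A ratio between replicas says nothing of the level of a gene, so a value here does not show expression. The largest was 1.595 for Hoxb4 on GA array 1, against 0.09 on array 2.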

How the data were processed

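Spotted 65-mer arrays with 34 Hox probes were hybridized with 2 dyes on each of 56 arrays. The deposited log2 ratios were made by the authors from GenePix intensities by subtracting the background and print-tip lowess within each array in limma, and were used as they are. No build is named in the files, and the reason for missing values and the limma version are not given in the sources used here. Of 21997 probes, 231 controls were left out after their values were seen, 139 carried several gene symbols and 4995 carried no symbol. The remaining 16632 were averaged by symbol, which gave 15063 genes. Ratios were turned to OV over 3T3, or to replica 1 over replica 2.

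Each comparison was fitted over all genes with a value on all 4 arrays, in limma 3.58.1 under R 4.3.3 (lmFit and eBayes, prior proportion 0.01), and genes were called at an LOD above 0. Differences from unamplified cDNA were fitted on 8 arrays and called at a Benjamini-Hochberg adjusted p under 0.05. Every Hox gene is accounted for, those called get all arrays, and up to 3 called genes with the largest ratio are named per companion list, with Xist and Cdkn2a as checks. Members and lists were chosen with earlier results of these data known. Alternatives covered the threshold, missing values, probes, scaling, centring, a dye term, blocks and single arrays. The tests were tried on simulated data. Figures were made with matplotlib 3.10.9 in Python 3.11.15. Probe sequences were not used here, so cross-hybridization between paralogs or with antisense transcripts was not tested.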

Additional observations from a re-analysis of the deposited data

Results flagged for a closer look

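Single arrays far from the other 3 of their target were found for 5 of 106 sets of 4 values, and chance alone gives about 1 in 20. In unamplified cDNA these were Hoxa2 on array 3, at 0.07 where the others were 0.38 to 0.43, and Hoxa6 on array 1, at 0.20 where the others were -0.10 to -0.06. In SMART they were Hoxb3 on array 4 (0.40, others -0.51 to -0.38), where only 1 of its 2 probes had a value, and Hoxd12 on array 1 (-0.35, others 0.02 to 0.04). The probe of Hoxb3 measured on all 4 SMART arrays was at -0.35, -0.13, -0.09 and 0.40, so the gap rests in part on the change of probes. In GA at 10 pg it was Hoxa4 on array 4, at 2.68 where the others were -0.15 to 0.28.

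Differences of log2 ratios, amplified minus unamplified, passed an adjusted p under 0.05 in limma in 31 of 78 tests, all against the same 4 unamplified arrays. In IVTIII they were 0.51 for Hoxa5, -0.68 for Hoxa10, -0.82 for Hoxb3, -0.54 for Hoxc6, -0.38 for Hoxd4, 0.60 for Hoxd8 and -1.47 for Hoxd10. GA gave -0.58 for Hoxa2, 1.03 for Hoxa3, -1.13 for Hoxa10 and -0.83 for Hoxb3. SMART gave 1.37 for Hoxb9, -1.94 for Hoxd10, -0.55 for Hoxd11 and -0.62 for Hoxd12. SM37 gave -0.62 for Hoxa2, 0.55 for Hoxa4, -0.38 for Hoxa9, -0.53 for Hoxb3, -0.79 for Hoxb7, 1.70 for Hoxb9, 0.61 for Hoxc9, -1.65 for Hoxd10, -0.55 for Hoxd11 and -0.54 for Hoxd12. GA at 10 pg, whose arrays may not follow their labels, gave -0.61 for Hoxa2, -0.54 for Hoxa9, 1.00 for Hoxb5, 0.49 for Hoxc9, -0.52 for Hoxd4 and -0.70 for Hoxd9. The Hoxb3 differences depend on its probes. On IVTIII arrays 1 and 2 only 1 of its 2 probes had a value, at -0.70 and -1.11. In SM37 the 2 probes averaged 0.12 and -0.44.

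A further 2 genes had values on 3 arrays, all opposite in sign to those of unamplified cDNA. These differences were not tested, and the share of all genes with such signs was not counted. Hoxb6 averaged -0.19 in SM37, against 0.58 in unamplified cDNA, and Hoxa3 averaged 0.83 in GA at 10 pg, against -0.68. Whether the arrays of GA at 10 pg follow their labels is not known, so the sign of Hoxa3 there is not read as a reversal.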

How the results depend on the processing

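Of 143 counts of Hox genes recomputed under other settings, 110 stayed within 1.5 times. The 110 include all counts of SMART at 10 pg, where every count was 0 and at most 2 members could be tested. Of 132 values of called genes 111 kept their call, 21 lost it and 0 changed sign. Each called gene had the same sign on all 4 arrays of its target. Leaving out or scaling arrays could thus not change the sign, and the 0 is no test of it. At an adjusted p under 0.05 the counts of called genes were 20 in unamplified cDNA, 5 in IVTIII, 2 in GA, 2 in SMART, 8 in SM37 and 2 in GA at 10 pg, against 7, 1, 1, 1, 2 and 0 at an LOD above 0. With assumed dye-swap pairs as a replicate block SMART gave 2 calls, and with a dye term SM37 gave 1. Leaving out 1 array gave 3 to 6 calls in unamplified cDNA, 1 to 2 in IVTIII, 0 to 3 in SMART, 1 to 2 in SM37 and 0 to 1 in GA at 10 pg. Of the differences from unamplified cDNA, scaling all 8 arrays to the same spread gave 8 in GA, against 4, and 2 in SMART, against 4. Leaving out 1 array gave 4 to 6 differing genes in IVTIII, 3 to 6 in GA, 2 to 8 in SMART, 6 to 10 in SM37 and 1 to 8 in GA at 10 pg. Same hybridization numbers did not pair the targets (correlation of deviations -0.23 to 0.12), and as a replicate block they gave 1 differing gene in GA at 10 pg, against 6. With values on all 4 arrays required, SMART at 10 pg allowed no test of a member. Signal over background could not be given, so a missing value cannot be told apart from a low one.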
